A study of Mus musculus with 9 samples.

Results

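Liver myeloid cells from mice treated with HEK-derived SIRP vesicles were compared with those of PBS-treated controls, both after acetaminophen (APAP) injury. The comparison holds 6 of the 9 samples of the study, 3 labelled as HEK cell derived SIRP-EV (HEK-EV group) and 3 labelled PBS, and 13435 of the 45777 genes in the tables, those with at least 1 TPM (transcripts per 1000000) in at least 3 of the 6 samples. All samples share the same injury and harvest. APAP was injected into the peritoneum, the vesicles were given into a vein 8 hours after it, and livers were taken 48 hours after it. Livers were dissociated, CD11b+ cells were isolated, and their RNA was sequenced in bulk. The 3 further samples received SIRP vesicles from MSC cells (MSC-EV group) and serve below for the test of the difference between the 2 vesicle groups. The labels give no strain, age, sex or vesicle dose. No group analysed here received vesicles without SIRP or no APAP, so an effect of the vesicle and an effect of its SIRP cannot be told apart. The labels do not say whether replicates are separate animals, so the p-values measure the spread between these samples, which may be partly technical.

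APAP overdose kills hepatocytes through a reactive metabolite, and dying cells draw neutrophils and monocytes into the liver, where they join the resident macrophages called Kupffer cells. These phagocytes first release inflammatory mediators and then clear debris. HEK cells are a human embryonic kidney line. SIRP is not spelled out in the labels and is read here as signal regulatory protein. SIRP alpha is the receptor through which myeloid cells read CD47, the "don't eat me" signal of other cells, and it restrains phagocytosis through the phosphatases SHP-1 and SHP-2. A vesicle carrying SIRP can in principle occupy CD47 on other cells.

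The 6 transcriptomes were close to each other. Across the genes tested, the Pearson correlation of log2(TPM + 1) between pairs of samples was 0.988 to 0.993 within the PBS group, 0.989 to 0.992 within the HEK-EV group and 0.989 to 0.993 between the groups. The first principal component of the 6 samples held 32.9% of the variance. Its scores were -20.3, 7.68 and 14.9 for the PBS samples and 11.7, -6.34 and -7.69 for the HEK-EV samples, so the groups overlapped on it. Read numbers are not in the files, and depth is therefore not known. Coverage divided by FPKM, a stand-in for relative depth, was 5.16, 5.92 and 6.17 in the PBS samples and 6.11, 6.33 and 6.16 in the HEK-EV samples, lowest in PBS replicate 1. Between 28.8% and 30.4% of TPM fell on the top 100 genes, and between 5.44% and 6.48% on mitochondrial ones. The gate showed in its markers. All 9 myeloid markers listed for it were above 0 in every sample and together held 2.63%, 2.75% and 2.82% of TPM in the PBS samples and 2.68%, 2.60% and 2.36% in the HEK-EV samples. Itgam, which encodes CD11b, was at 289, 324 and 377 TPM in the PBS samples and 339, 342 and 434 TPM in the HEK-EV samples, which overlap (log2 fold change 0.17, SE 0.133, limma adjusted p = 0.998). Among these 6 samples, pancreatic acinar transcripts set 2 HEK-EV samples apart. A list of 28 acinar genes held 0.0015%, 0.00148% and 0.00133% of TPM in the PBS samples, with 24 or 25 of the genes at 0. It held 0.00461% in HEK-EV replicate 1, with 5 at 0, 0.14% in replicate 2, with 1 at 0, and 0.00154% in replicate 3, with 24 at 0. The signal was not particular to the HEK-EV group. In the MSC-EV samples the list held 0.0182%, 0.00138% and 0.392%, with 4, 24 and 1 of the genes at 0.

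No gene passed the adjusted threshold of 0.05 between HEK-EV and PBS (0% of 13435, limma with Benjamini-Hochberg adjustment, smallest adjusted p = 0.825). At an unadjusted p under 0.05, 307 genes were higher (2.29%) and 169 were lower (1.26%) in the HEK-EV group. These 476 genes are 3.54% of those tested, and 672 would be expected with no difference in any gene. In 743 genes (5.53%) every HEK-EV sample lay above every PBS sample, and in 304 (2.26%) every one lay below. Together these are 7.79% of the genes. For 3 samples against 3, a share of 0.1 would be expected with no difference in any gene. The intervals give a range for the size of each gene's difference. They rest on the spread between these samples and are not adjusted for the number of genes. The 95% confidence interval of the log2 fold change lay within 2-fold in either direction for 97.4% of the genes and within 1.5-fold for 86.5%. Among the 8594 genes with a mean of at least 10 TPM, 99.1% had an interval within 2-fold. The median size of the difference was 0.0698 on the log2 scale, and 20 genes differed by at least 2-fold in their means on the log2(TPM + 1) scale. HEK-EV was higher for 8209 genes and lower for 5226, or 61.1% higher, with a median of 0.03. Median-of-ratios scaling gave 49.1% higher, a balance that it sets itself by centring the genes, and FPKM gave 52.9%. The share was 49.2% without PBS replicate 3 and 68.1% without PBS replicate 1. The excess of higher genes thus depended on the scaling and on single samples. All fold changes below are HEK-EV minus PBS on the log2(TPM + 1) scale, which understates changes of low genes. None passes the adjustment, and p-values given as unadjusted stand for rank among the genes only. Genes named below for smallest p or largest fold were picked only among genes without overlap between the groups. For them a lack of overlap follows from the choice and adds no support.

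**Figure D1:**
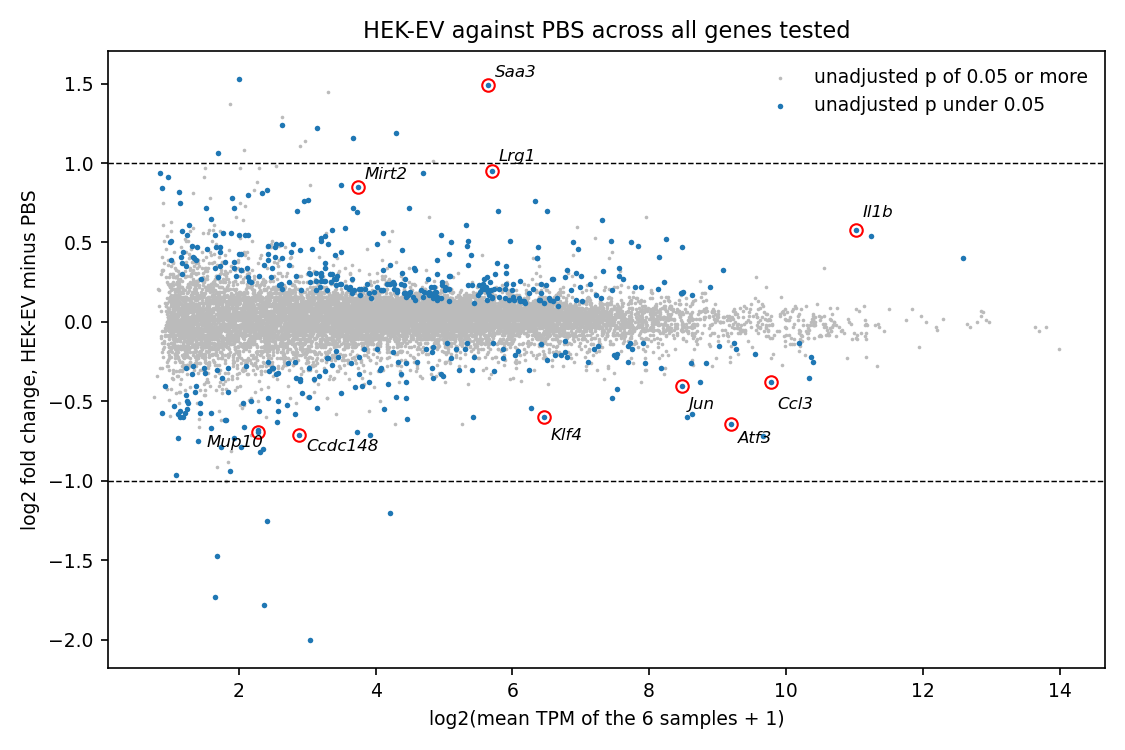
Log2 fold change of HEK-EV over PBS (vertical axis) against the log2 of the mean TPM of the 6 samples plus 1 (horizontal axis), with 1 point per gene for the 13435 genes tested. Blue points have an unadjusted p under 0.05, dashed lines mark a 2-fold difference, and red circles mark named genes. Most points lie near 0, Atf3 (-0.64), Jun (-0.40) and Ccl3 (-0.38) lie low among abundant genes, and Saa3 (1.49) lies above the upper line.

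The lower genes of smallest p included transcription factors of the immediate early response. These genes are switched on within minutes by stress, injury, growth factors and inflammatory signals, from promoters already loaded with the factors that drive them, and they are also known to respond to tissue dissociation. Atf3 encodes a stress-induced repressor of the ATF/CREB family (gene ID 11910, chr1:191170296-191183333). It was at 718, 667 and 758 TPM in the PBS samples and 431, 413 and 533 TPM in the HEK-EV samples. All 3 HEK-EV samples lay below all PBS samples, and replicate 3 was the highest of them. The means were 714 ± 45.6 and 459 ± 64.8 TPM (SD, n = 3 each; log2 fold change -0.64, SE 0.0949, 95% interval -0.86 to -0.43, limma adjusted p = 0.825). Over 20 alternatives the fold change ran from -0.76 to -0.51 and the adjusted p from 0.0216 to 1. Without HEK-EV replicate 3 it passed the threshold.

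Klf4, a Krüppel-like factor of monocyte and macrophage differentiation (gene ID 16600, chr4:55527137-55532475), was at 101, 109 and 106 TPM in the PBS samples and 70.0, 67.2 and 70.7 TPM in the HEK-EV samples. Picked for a small p and no overlap, it had means of 105 ± 4.16 and 69.3 ± 1.87 TPM (SD, n = 3 each, log2 fold change -0.60, SE 0.103, limma adjusted p = 0.88). It passed the threshold at 0.0402 when MSC-EV replicate 1, which enters only through the shared spread, was left out. Over the 20 alternatives Klf4 ran from -0.65 to -0.51 and its adjusted p from 0.0402 to 1. Jun, a subunit of the AP-1 factor (gene ID 16476, chr4:95049036-95052222), was at 419.7, 413 and 382 TPM with PBS and 294, 286 and 343 TPM with HEK-EV. Its groups did not overlap either (log2 fold change -0.40, SE 0.1, limma adjusted p = 0.998). Its partner Fos was at 1284, 1421 and 1611 TPM against 1009.6, 1063 and 1322 TPM, where HEK-EV replicate 3 reached above PBS replicate 1 (log2 fold change -0.35, SE 0.156, limma adjusted p = 0.998).

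Since the data are on these 3 genes' transcripts, the 250 bases before their RefSeq starts (build GRCm38.p6, minus strand of the chromosome, 5′ to 3′ along the gene) are shown with matches to motifs known from this class of promoter in capitals. The capitals mark TNACNTCA, a form loosened from the cyclic AMP response element TGACGTCA, in Atf3 (chr1:191183334-191183583) and Jun (chr4:95052223-95052472), and the EGR motif GCGGGGGCG, on the opposite strand, in Klf4 (chr4:55532476-55532725).
Atf3: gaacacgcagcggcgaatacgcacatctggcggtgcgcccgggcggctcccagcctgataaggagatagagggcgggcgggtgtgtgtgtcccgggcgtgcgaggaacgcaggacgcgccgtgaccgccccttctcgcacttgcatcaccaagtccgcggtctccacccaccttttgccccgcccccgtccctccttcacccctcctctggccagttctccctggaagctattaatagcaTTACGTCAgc
Jun: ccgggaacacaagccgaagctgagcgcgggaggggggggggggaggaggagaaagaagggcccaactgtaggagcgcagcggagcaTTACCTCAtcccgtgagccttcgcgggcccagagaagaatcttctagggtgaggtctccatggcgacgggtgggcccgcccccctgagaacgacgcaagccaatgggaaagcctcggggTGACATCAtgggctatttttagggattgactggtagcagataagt
Klf4: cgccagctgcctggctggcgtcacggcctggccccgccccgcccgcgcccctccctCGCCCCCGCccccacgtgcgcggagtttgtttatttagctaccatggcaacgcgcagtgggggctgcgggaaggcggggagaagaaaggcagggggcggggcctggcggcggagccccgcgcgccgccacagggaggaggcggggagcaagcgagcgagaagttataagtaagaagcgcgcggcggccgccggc
Counted from -1 at the last base before the start, the match in Atf3 lies at -10 to -3, those in Jun at -164 to -157 and -45 to -38, and that in Klf4 at -194 to -186. The looser motif was chosen after TGACGTCA itself was found in neither the Atf3 nor the Jun window. On either strand TNACNTCA is in 14% of all 32851 RefSeq windows of this length and in 8 of the 25 immediate early genes with a window, and TGACGTCA in 1.55% and 3 of 25 (Dusp1, Btg2 and Maff). GCGGGGGCG is in 2.57% of all windows and in 7 of the 25, Klf2, Klf4, Fosb, Fosl2, Dusp2, Nr4a1 and Zfp36. These motifs do not overlap in the windows shown, and a match is a description of the letters only.

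The immediate early genes did not move as 1 group. Of the 30 members tested, 17 were lower and 13 higher, against 5226 and 8209 among all genes, and the list's median was -0.12 against 0.03. At an unadjusted p under 0.05, 7 were lower, Atf3, Klf4, Jun, Dusp2, Nr4a2, Ier5 and Fos, where 1.26% of all genes were. Fos was at the edge, with an unadjusted p that rounds to 0.05. On the other side were Egr1 and Fosl2, 2 of 30, where 2.29% of all genes were. The 7 lower genes became 11 without PBS replicate 1, 4 without PBS replicate 2, and 3 without HEK-EV replicate 1 or with a term for acinar signal, and the 2 higher ones ran from 0 to 6 over the alternatives. Egr1, a zinc finger factor, was at 234, 312 and 350.3 TPM with PBS and 388, 376 and 469.7 TPM with HEK-EV, so all HEK-EV samples lay above all PBS samples while Atf3 and Jun lay below (log2 fold change 0.47, SE 0.155, limma adjusted p = 0.998). Junb (0.04), Nr4a1 (-0.05), Zfp36 (-0.11) and Ier2 (0.12) differed little on the log2 scale. The list's share of TPM was 0.956%, 1.06% and 1.21% in the PBS samples and 0.884%, 0.906% and 1.14% in the HEK-EV samples. Without PBS replicate 3 the median of the list was 0.01, with 16 higher and 14 lower. Heat shock genes, also known to respond to handling, were lower in 13 of 16, where 5226 of 13435 genes were, with a median of -0.07. Without HEK-EV replicate 2, 8 were higher and 8 lower, with a median of -0.01. With a term for acinar signal 10 were higher and 6 lower, with a median of 0.01. Hspa1a, which encodes the inducible Hsp70, was at 606, 480.2 and 293 TPM against 233, 304 and 341 TPM, and the groups overlapped through PBS replicate 3 (log2 fold change -0.60, SE 0.241, limma adjusted p = 0.998). Whether handling had a part in the immediate early values was not tested.

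**Figure D2:**
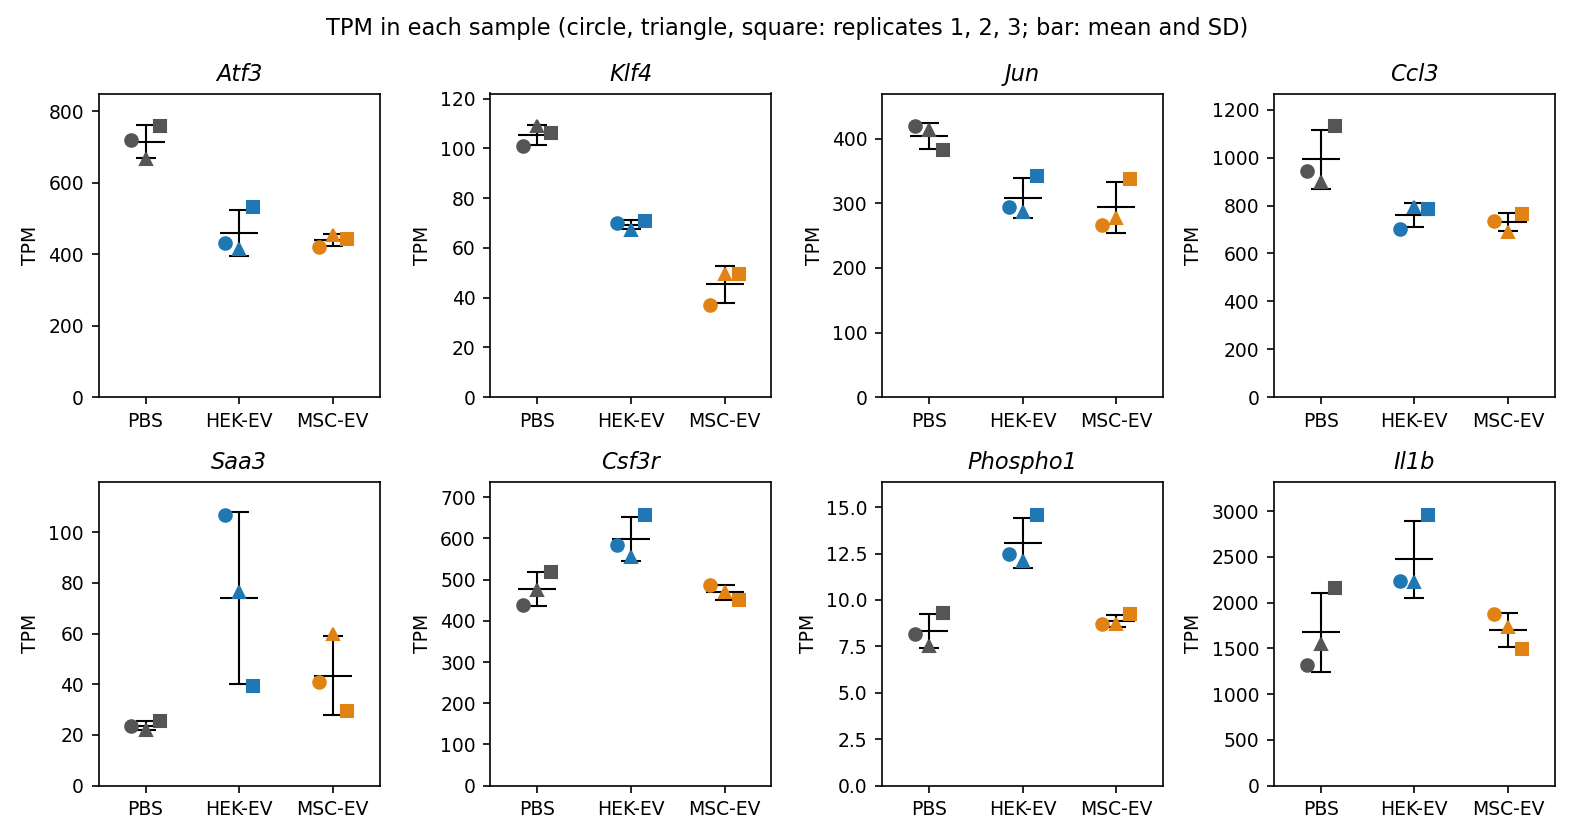
TPM (vertical axes, starting at 0) of 8 genes in each PBS, HEK-EV and MSC-EV sample, with symbols for replicates 1, 2 and 3 and bars for the mean and SD of 3 samples. Atf3, Klf4, Jun and Ccl3 were lower in all 3 HEK-EV samples than in any PBS sample, and Saa3, Csf3r, Phospho1 and Il1b were higher in all 3.

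Chemokines and their receptors lay on both sides of 0. Ccl3, which encodes MIP-1 alpha (gene ID 20302, chr11:83647843-83649378), was at 945, 900.1 and 1132 TPM in the PBS samples and 703, 796 and 784 TPM in the HEK-EV samples. No HEK-EV sample reached the lowest PBS sample (log2 fold change -0.38, SE 0.0921, limma adjusted p = 0.998). Its neighbour Ccl4, which encodes MIP-1 beta, was at 447, 445 and 556 TPM against 336, 354 and 420.3 TPM, again without overlap (log2 fold change -0.38, SE 0.107, limma adjusted p = 0.998). The deposited intervals of Ccl3 and Ccl4 overlap on chromosome 11, but neither shares annotated exonic bases with another gene. Whether part of their signal is shared is not known. Over the 29 chemokines and receptors tested, 16 were higher and 13 lower, the median was 0.02, and the counts at an unadjusted p under 0.05 were 3 in each direction, where 2.29% of all genes were higher and 1.26% lower. The lower ones were Ccl3, Ccl4 and the receptor Cxcr4, and the higher ones the receptors Ccr1 and Cxcr2 and the B cell attractant Cxcl13. Ccl2, the main chemokine for Ly6C-high monocytes, was at 189.9, 256 and 369 TPM against 215, 236 and 329 TPM (log2 fold change -0.03, SE 0.258, limma adjusted p = 0.998), and its groups overlapped throughout.

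Genes with the smallest p among the higher ones were of several kinds. Phospho1, which encodes a phosphatase of phosphocholine (gene ID 237928, chr11:95824500-95832140), was at 8.19, 7.52 and 9.31 TPM with PBS and 12.5, 12.1 and 14.6 TPM with HEK-EV. Its groups did not overlap (log2 fold change 0.59, SE 0.1, limma adjusted p = 0.88). Soat2, a cholesterol esterifying enzyme, was at 4.27, 5.30 and 5.17 TPM against 8.30, 8.31 and 10.8 TPM (log2 fold change 0.77, SE 0.151, limma adjusted p = 0.998). Both genes stood lower in the MSC-EV than in the HEK-EV group, Phospho1 by a log2 difference of -0.50 (limma adjusted p = 0.0255) and Soat2 by -0.82 (adjusted p = 0.0229). They were chosen because the same HEK-EV samples stood high, which tilts this test toward a lower MSC-EV value. Of the genes that follow, Mirt2 (-0.55) and Gadd45a (-0.42) were lower in MSC-EV without passing. Ankrd33b (0.04) and Tcf4 (0.03) were about level between the vesicle groups. The long noncoding RNA Mirt2, which is induced in macrophages by Toll-like receptor signals, was at 6.55, 9.69 and 9.66 TPM against 15.8, 15.4 and 17.3 TPM (log2 fold change 0.85, SE 0.161, limma adjusted p = 0.998). Tcf4, a factor of plasmacytoid dendritic cells, was at 8.32, 8.07 and 9.32 TPM against 16.9, 11.4 and 16.4 TPM (log2 fold change 0.72, SE 0.165), while the dendritic cell list it belongs to had 10 of 16 members lower. Ankrd33b (0.54) and the stress gene Gadd45a (0.61) completed this set, also without overlap between groups. The remaining lower genes of small p or large fold were Mkln1 (-0.34), which encodes a subunit of a ubiquitin ligase, Ccdc148 (-0.71), the urinary protein gene Mup10 (-0.69), and RNAs of the noncoding kind, Rn7sk (-0.69), Snord1b (-0.82) and Snhg8 (-0.33). Rn7sk, the small RNA that holds back a transcription elongation factor, was at 19.4, 13.8 and 13.4 TPM with PBS and 8.91, 9.52 and 8.98 TPM with HEK-EV, without overlap. The library kit selects polyadenylated RNA, and Rn7sk has no such tail. Snord1b, Snhg8, Jun, Mkln1, Mirt2, Gadd45a, Phospho1, Il1b, Dusp1, Bcl3, Itgam and Hspa1a share exonic bases with another annotated gene, and how reads were divided between such genes is not known.

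By size of the difference, Saa3 stood out, with the neutrophil gene Mrgpra2a (1.22), its near copy Mrgpra2b and Lrg1 (0.95), which encodes a secreted glycoprotein, beside it. Saa3 encodes an acute phase serum amyloid A made by macrophages and other cells outside hepatocytes (gene ID 20210, chr7:46711998-46719615). It was at 23.5, 22.1 and 25.5 TPM in the PBS samples and 107, 76.5 and 39.2 TPM in the HEK-EV samples. The PBS samples were alike, while the HEK-EV samples ran from just above them in replicate 3 to far above them in replicate 1 (log2 fold change 1.49, SE 0.336, 95% interval 0.74 to 2.25, limma adjusted p = 0.998). Of 17 genes of alternative macrophage activation, 10 were higher and 7 lower, with a median of 0.07. Chil3, a secreted chitinase-like protein of this list, was lower on average, at 2537, 4880.1 and 5224 TPM against 2991, 3184 and 4839.9 TPM (log2 fold change -0.16, SE 0.3).

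Neutrophil genes stood higher in the HEK-EV samples. Of 22 genes of mature neutrophils, 21 were higher, against 61.1% of all genes, with a median of 0.36 against 0.03. At an unadjusted p under 0.05, 7 of 22 were higher, where 2.29% of all genes were, namely Mrgpra2b, Csf3r, Stfa2l1, Cxcr2, Hdc, G0s2 and S100a9. Csf3r, the receptor for the neutrophil growth factor G-CSF, was at 439, 474 and 519.7 TPM with PBS and 585, 555 and 658 TPM with HEK-EV. All HEK-EV samples exceeded all PBS samples (log2 fold change 0.33, SE 0.0815, limma adjusted p = 0.998). Mrgpra2b, a receptor gene expressed in neutrophils, was at 4.86, 5.75 and 10.6 TPM against 16.2, 13.8 and 19.3 TPM (log2 fold change 1.16, SE 0.273, limma adjusted p = 0.998). Its near copy Mrgpra2a had a log2 fold change of 1.22, and reads of the pair may be shared between them. S100a9, a subunit of calprotectin, was at 1382, 1907 and 2723 TPM against 2612, 2512 and 3330.3 TPM, where PBS replicate 3 lay within the HEK-EV range (log2 fold change 0.54, SE 0.222, limma adjusted p = 0.998).

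Neutrophil transcripts also differed between samples of a group. The 22 genes held 0.431%, 0.582% and 0.779% of TPM in the PBS samples and 0.693%, 0.686% and 0.93% in the HEK-EV samples, so PBS replicate 3 exceeded HEK-EV replicates 1 and 2. The median of the list was 0.20 without PBS replicate 1, with 18 of 22 higher, 0.20 without HEK-EV replicate 3, with 17 higher, and 0.13 with the depth ratio as a covariate, also with 17 higher. Without PBS replicate 3 it was 0.55, with 22 higher. The 7 genes at an unadjusted p under 0.05 became 14 without PBS replicate 3, 4 without PBS replicate 2, 3 without PBS replicate 1, and 2 without HEK-EV replicate 3 or with the depth covariate. Genes of neutrophil granules, which are transcribed in immature cells, were split, with 6 of 11 higher and a median of 0.01. That median was no firmer, at -0.24 with depth as a covariate and 0.32 without PBS replicate 3. In bulk samples, more neutrophils and more of these transcripts per neutrophil cannot be told apart.

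Cytokine and mediator genes as a list were higher about as often as all genes, and single members such as Il1b stood higher. Il1b, which encodes interleukin 1 beta (gene ID 16176, chr2:129364569-129371164), was at 1319, 1546 and 2158 TPM in the PBS samples and 2236, 2229 and 2963 TPM in the HEK-EV samples. PBS replicate 3 came close to HEK-EV replicates 1 and 2 without reaching them (log2 fold change 0.58, SE 0.18, limma adjusted p = 0.998). Osm, oncostatin M, was at 111, 136 and 185 TPM against 196, 180.4 and 229 TPM (log2 fold change 0.51, SE 0.16, limma adjusted p = 0.998). Il1rn, the antagonist of the interleukin 1 receptor, was at 62.9, 63.9 and 77.7 TPM against 103, 92.9 and 88.6 TPM, without overlap (log2 fold change 0.47, SE 0.164, limma adjusted p = 0.998). With Ptgs2, the inducible prostaglandin synthase, these were the 4 of 16 cytokine and mediator genes at an unadjusted p under 0.05, all higher, where 2.29% of all genes were. With depth as a covariate the count was 0 higher and 1 lower. It was 3 and 2 without PBS replicate 1, 2 and 1 without PBS replicate 2, and 6 and 0 without PBS replicate 3. Array quality weights gave 5 higher and 4 lower. Of the 16, 10 were higher, where 61.1% of all genes were, and the median was 0.11 against 0.03 over all genes, or 0.05 with that covariate. Tnf was at 69.1, 74.5 and 91.2 TPM against 73.8, 83.9 and 106 TPM, which overlap (log2 fold change 0.16, SE 0.149). Il10 was at 6.39, 5.04 and 5.38 TPM against 4.04, 3.95 and 7.32 TPM (log2 fold change -0.15, SE 0.267). Within the PBS and HEK-EV groups, Il1b and the neutrophil list's share of TPM were both highest in replicate 3. Of these 6 samples, both were lowest in PBS replicate 1. In the MSC-EV group both were lowest in replicate 3, at 1496 TPM and 0.418%. The part of the neutrophil share in the Il1b difference was not tested.

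Targets and feedback inhibitors of NF-kB, the factor downstream of Toll-like and interleukin 1 receptors, were all on the higher side by small amounts. All 20 had fold changes above 0, where 61.1% of all genes did, from 0.01 to 0.40, with a median of 0.08. Nfkbid (0.29) and Bcl3 (0.24) were at an unadjusted p under 0.05, 2 of 20 where 2.29% of all genes were, and Nfkbia (0.02) and Nfkb1 (0.01) were near 0. Both counts rest in part on the fit. With median-of-ratios scaling 15 of 20 were higher and with FPKM 17 of 20, and 0 were at that threshold with either of these, with depth as a covariate, or without PBS replicate 1, PBS replicate 2 or HEK-EV replicate 3. Inflammasome genes had 9 of 15 higher with a median of 0.01. Nlrp3 was at 91.2, 96.3 and 105 TPM against 108, 112 and 151 TPM, without overlap (log2 fold change 0.33, SE 0.119, limma adjusted p = 0.998).

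**Figure D3:**
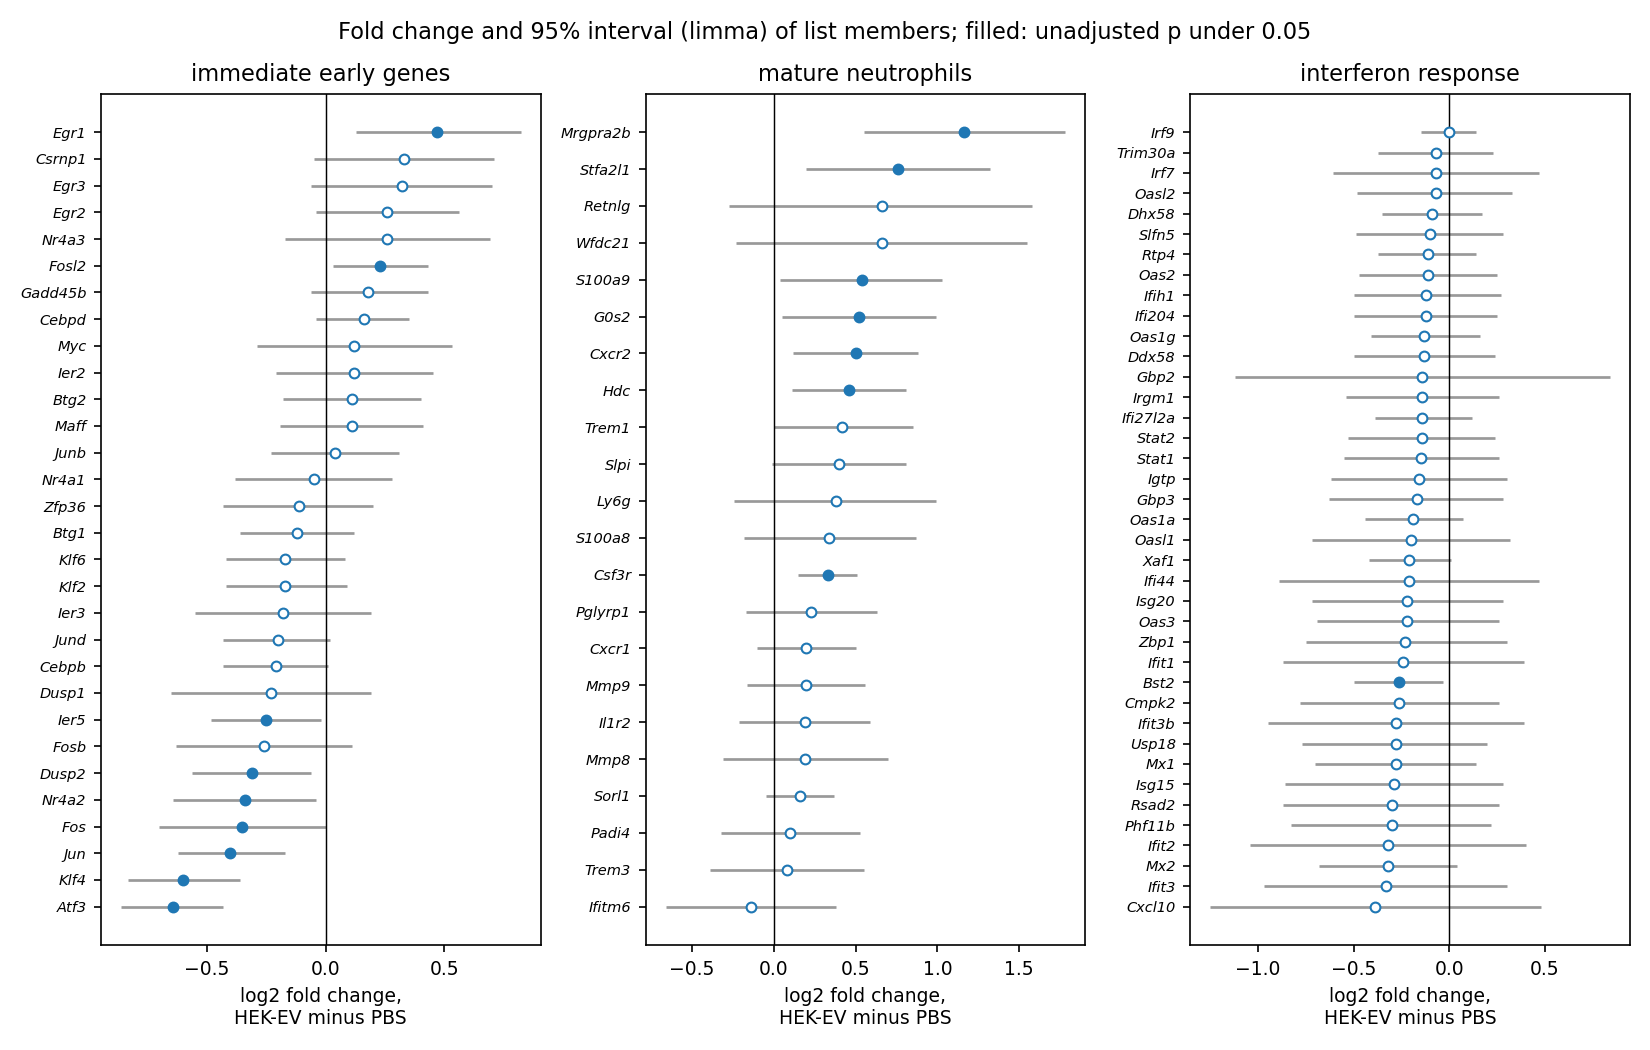
Log2 fold change of HEK-EV over PBS with its 95% interval from limma (horizontal axes) for each tested member of 3 gene lists, where filled points have an unadjusted p under 0.05. The 30 immediate early genes lie on both sides of 0, 21 of 22 genes of mature neutrophils lie above 0, and all 39 interferon response genes lie at or below 0 with wide intervals.

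Interferon response genes lay on the lower side without exception, with intervals that mostly include 0. All 39 had a fold change below 0, from -0.39 for Cxcl10 to -0.00 for Irf9, with a median of -0.19. At an unadjusted p under 0.05 there was 1 of 39, where 1.26% of all genes were, namely Bst2, which encodes tetherin, a membrane protein that holds budding viruses. Bst2 was at 434, 543 and 504 TPM in the PBS samples and 412, 375 and 443 TPM in the HEK-EV samples, where HEK-EV replicate 3 exceeded PBS replicate 1 (log2 fold change -0.26, SE 0.105, limma adjusted p = 0.998). Mx2 was at 25.8, 40.3 and 32.9 TPM against 28.5, 23.6 and 25.6 TPM, and Oas1a at 230.1, 319 and 302 TPM against 263, 232 and 247 TPM. In these 3 genes PBS replicate 1 was the lowest PBS sample. It lay within the HEK-EV range for Bst2 and Mx2 and below all HEK-EV samples for Oas1a. The list held 0.674%, 1.09% and 0.949% of TPM in the PBS samples and 0.865%, 0.702% and 0.801% in the HEK-EV samples, so PBS replicate 1 was the lowest of the 6.

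The size of this difference moved with single PBS samples and with the fit. Without PBS replicate 1 the median was -0.35, with 22 of 39 lower at an unadjusted p under 0.05. Without PBS replicate 2 it was -0.01, with 23 of 39 lower and 0 at that threshold. Array quality weights gave the lowest median, -0.45, with 37 at that threshold, and depth as a covariate gave -0.34 with 8. Interferon genes are induced together through the factor ISGF3, which binds the interferon stimulated response element, so the 39 values are not independent of each other. The promoter of Bst2 is shown as the example, since Bst2 had the smallest p of the list (chr8:71537473-71537722, GRCm38.p6, minus strand of the chromosome, 250 bases before the RefSeq start). Capitals mark 2 overlapping matches of the core GAAANNGAA at -130 to -122 and -124 to -116.
Bst2: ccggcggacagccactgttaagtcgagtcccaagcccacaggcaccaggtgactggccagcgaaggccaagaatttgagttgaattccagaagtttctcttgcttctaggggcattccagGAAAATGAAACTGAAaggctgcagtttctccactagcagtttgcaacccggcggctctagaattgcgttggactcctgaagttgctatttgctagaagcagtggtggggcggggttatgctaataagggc
GAAANNGAA is, on either strand, in 7.13% of all RefSeq windows and in 19 of the 29 interferon response genes with a window, and in 3 of the 25 immediate early genes. TGACGTCA was in 0 of the 29, and TNACNTCA in 4 of the 29, or 13.8%, against 14% of all windows. Here too listed genes were counted on any of their windows, and the share over all windows on single ones. The motif of the factor AP-1, TGANTCA, was in 8 of the 29 interferon response genes (27.6%), against 6.75% of all windows. It was in 1 of the 25 immediate early genes (4%), a count too small to give a direction.

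Genes of the SIRP and CD47 axis differed little. Sirpa, which encodes SIRP alpha, was at 768, 783 and 703 TPM in the PBS samples and 835, 771 and 775 TPM in the HEK-EV samples (log2 fold change 0.08, SE 0.0611, 95% interval -0.06 to 0.22, limma adjusted p = 0.998). The interval, which rests on the spread between these samples, holds only small differences either way. Cd47 was at 90.8, 105 and 92.7 TPM against 106, 88.2 and 88.9 TPM (log2 fold change -0.03, SE 0.0891, 95% interval -0.23 to 0.17). Of 13 genes of this axis, including the phosphatases Ptpn6 (0.04) and Ptpn11 (0.05), 10 were higher, the median was 0.07, the range was -0.14 to 0.14, and 0 were at an unadjusted p under 0.05 in limma. Of 23 genes of efferocytosis, the uptake of dying cells, 17 were higher and 6 lower with a median of 0.06 and a range of -0.24 to 0.25, and again 0 were at an unadjusted p under 0.05. That count was 8, all higher, with depth as a covariate (median 0.19) and 4 without PBS replicate 1 (median 0.16), while without PBS replicate 3 the list had 8 higher and 15 lower. Mertk, the main receptor of this uptake in liver macrophages, was at 103, 80.3 and 67.5 TPM against 81.3, 94.8 and 96.9 TPM (log2 fold change 0.14, SE 0.149).

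Lists of macrophage lipid handling and repair had medians between -0.02 and 0.14, and some moved with single samples. Of 21 genes of lipid-associated macrophages, 11 were higher and 10 lower, with a median of 0.04, and Apoe alone was at an unadjusted p under 0.05, 1 of 21 where 2.29% of all genes were. Without PBS replicate 1, 18 of the 21 were higher, 9 at that threshold, with a median of 0.24. Depth as a covariate gave 18 higher, 7 at that threshold and a median of 0.25, and array quality weights 19, 7 and 0.22. Without PBS replicate 2 or 3 the median was -0.05. Apoe, the lipid carrier, was at 4197, 6431 and 5324 TPM against 7046, 7588 and 6195 TPM, where PBS replicate 2 exceeded HEK-EV replicate 3 (log2 fold change 0.40, SE 0.148, limma adjusted p = 0.998). Gpnmb was at 705, 323 and 252 TPM against 491, 461 and 351 TPM (log2 fold change 0.16, SE 0.328). Matrix metalloproteinases and their inhibitors had 10 of 12 members higher with a median of 0.14, or 7 of 12 and 0.06 without HEK-EV replicate 3. Mmp14, a membrane collagenase, averaged 32.8 ± 4.80 TPM against 45.8 ± 3.67 TPM (SD, n = 3 each), without overlap (log2 fold change 0.48, SE 0.161, limma adjusted p = 0.998). Genes of MHC class II presentation (median 0.02), lysosomes (0.03), the phagocyte oxidase (0.04), Fc gamma receptors (-0.00), glycolysis and hypoxia (-0.01) and the cell cycle (-0.03) lay within 0.04 of 0. Growth factors of liver repair had 7 of 15 members higher with a median of -0.02, and 12 of 15 with 0.10 without PBS replicate 1 or without HEK-EV replicate 1. The cell cycle median was not stable, at 0.29 with depth as a covariate, 0.18 without PBS replicate 1, -0.21 without PBS replicate 3 and -0.39 with a term for acinar signal. That of MHC class II ran from -0.13 without PBS replicate 3 to 0.10 without HEK-EV replicate 3.

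**Figure D4:**
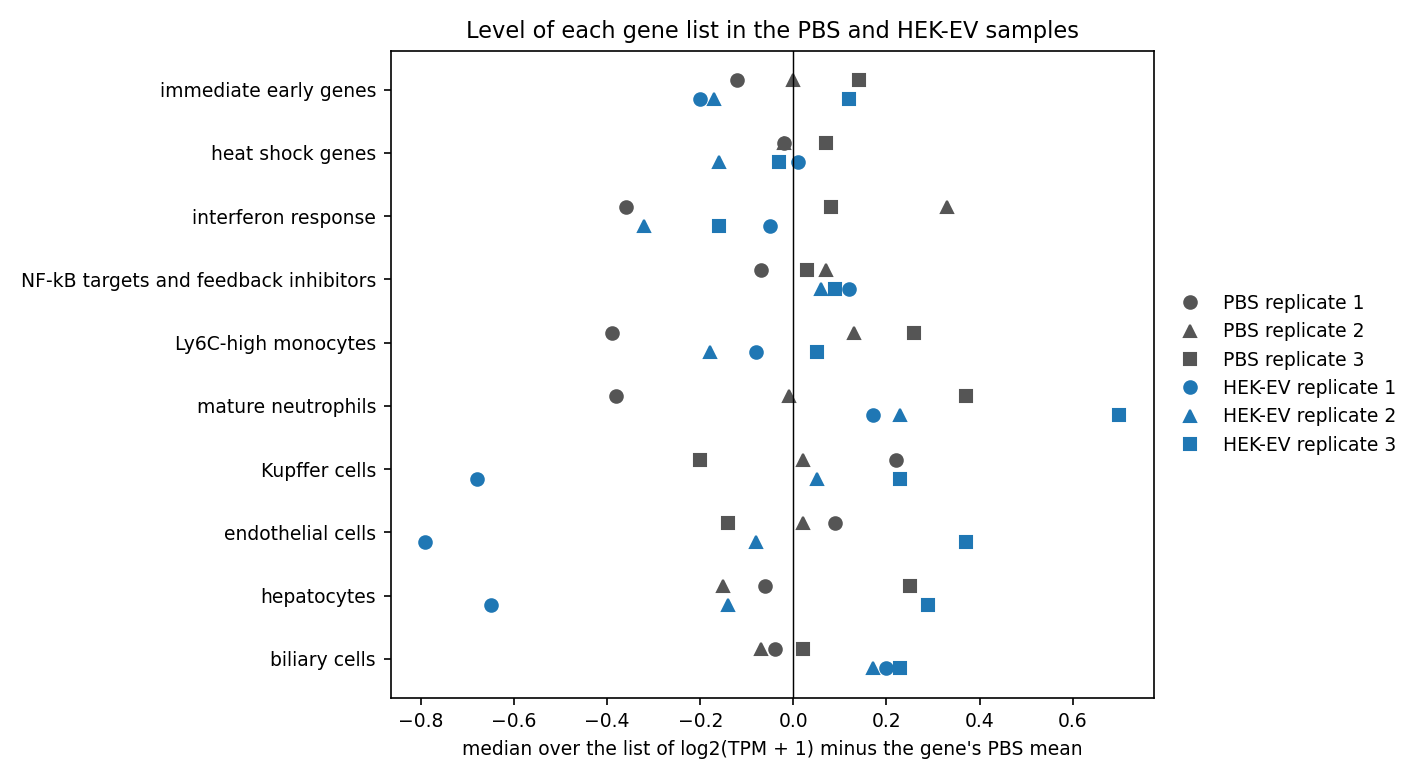
Median over each list of log2(TPM + 1) minus the gene's PBS mean (horizontal axis) in each of the 3 PBS and 3 HEK-EV samples, for 10 lists. HEK-EV replicate 1 stands apart for Kupffer cell (-0.68), endothelial (-0.79) and hepatocyte (-0.65) genes, PBS replicate 1 is lowest for interferon response (-0.36) and mature neutrophil (-0.38) genes, and the biliary list is 0.17 to 0.23 in the HEK-EV samples and -0.07 to 0.02 in the PBS samples.

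Markers of other cells in the suspension varied between single HEK-EV samples. Kupffer cell genes were lower in 13 of 19 with a median of -0.18 whose sign rested on HEK-EV replicate 1. Clec4f, a lectin specific to Kupffer cells, was at 668, 635 and 538 TPM in the PBS samples and 323, 592 and 705 TPM in the HEK-EV samples. Without HEK-EV replicate 1, 17 of 19 were higher and the median was 0.11. Endothelial genes behaved the same way, with 18 of 19 lower and a median of -0.16, and 18 of 19 higher and a median of 0.12 without HEK-EV replicate 1. Another Kupffer cell gene, Spic, the factor of macrophages that recycle iron from red cells, was higher in every HEK-EV sample, at 62.2, 58.9 and 65.1 TPM against 77.2, 67.2 and 79.3 TPM, without overlap (log2 fold change 0.26, SE 0.0748, limma adjusted p = 0.998).

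Hepatocyte genes were lower in 15 of 23, with a median of -0.11 that became 0.06 without HEK-EV replicate 1. Albumin (Alb) was at 135, 135 and 185 TPM against 89.9, 126 and 193 TPM. Biliary genes were low but on the higher side in every HEK-EV sample, 12 of 14 higher with a median of 0.23. Of these, Cdh1, Spint2 and Epcam were at an unadjusted p under 0.05, 3 of 14 where 2.29% of all genes were, and leaving out HEK-EV replicate 3 made this count 0, or 1 when replicate 1 was left out instead. Cdh1, the epithelial cadherin, was at 2.90, 2.82 and 2.22 TPM against 3.64, 3.06 and 4.02 TPM, without overlap (log2 fold change 0.33, SE 0.127, limma adjusted p = 0.998). The summed share of the biliary list was 0.00364%, 0.00353% and 0.00416% of TPM with PBS and 0.00444%, 0.00476% and 0.00487% with HEK-EV. Lymphocyte genes held 0.0035% to 0.00507% of TPM in the PBS samples and 0.00379% to 0.00585% in the HEK-EV samples. Genes of Ly6C-high monocytes were lower in 11 of 18 with a median of -0.13, and the median was 0.03 without PBS replicate 3.

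The 2 vesicle groups, which share the PBS controls, were compared with each other directly. Of the 13435 genes, 805 (5.99%) passed the adjusted threshold between MSC-EV and HEK-EV. That count was 0 without HEK-EV replicate 2 or without MSC-EV replicate 2, 1 without HEK-EV replicate 1, 3 without MSC-EV replicate 1 and 38 without HEK-EV replicate 3. It was 1339 without PBS replicate 1. Among the immediate early genes, Atf3 was at 419.9, 454 and 443 TPM in the MSC-EV samples, and its difference from HEK-EV was -0.06 (SE 0.0949, limma adjusted p = 0.777). Jun was at 266, 277 and 338 TPM there and differed by -0.07 (SE 0.1, limma adjusted p = 0.727). Klf4 was at 36.9, 49.5 and 49.5 TPM and lay below the HEK-EV group by -0.61 (SE 0.103, limma adjusted p = 0.0202). For Atf3 the log2 fold change over the shared PBS samples was -0.64 with HEK-EV and -0.70 with MSC-EV. For Klf4 these values were -0.60 and -1.21. Il1b was at 1871, 1732 and 1496 TPM in the MSC-EV samples and differed from HEK-EV by -0.54 (SE 0.18, limma adjusted p = 0.112), a difference that did not pass.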

How the data were processed

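Bulk RNA sequencing of CD11b+ liver cells gave 1 table per sample for 9 samples, 3 per group. Per the labels' protocols, Trizol was used for the RNA and a TruSeq Stranded mRNA kit for the libraries. The submitters' processing notes name HISAT2 2.1.0, StringTie and mm10, without roles, and the strand setting of the counting is not given in the sources used here. Per the file headers, the tables hold coverage (a read signal per gene), FPKM and TPM. The TPM deposited by the authors add up to 1000000 in each sample, rows of 1 gene ID were summed, and 45679 of 45777 IDs (99.79%) matched a symbol in RefSeq GRCm38.p6. The coordinates given are those of the files, and 96.3% of matched genes have the same ones in that assembly. FPKM and the coverage deposited by the authors gave a depth ratio, the median of coverage over FPKM. Depth in reads is unknown, so no counting interval was computed.

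Differences of log2(TPM + 1) were tested with the moderated linear model of limma 3.58.1 (R 4.3.3, eBayes with trend), all 9 samples in 1 fit, no covariate, two-sided, with Benjamini-Hochberg adjustment over the 13435 genes at a threshold of 0.05. An exact permutation test of 3 against 3 cannot go below 0.1 and was not used. Named genes were the 8 higher and 8 lower of smallest p and the 5 and 5 of largest fold, among genes whose groups do not overlap, whose higher group averages 5 TPM or more, and with a symbol other than a predicted or Riken gene, plus up to 4 per list of smallest p and a fixed panel. Other genes named, such as Cxcr4, Cxcl13 and the further immediate early, NF-kB and neutrophil members, are members of the lists. Not all genes that the rule names are reported here. The comparison, lists and rules were chosen with earlier results of these data known. Alternatives tried were FPKM, no filter, a 5 TPM minimum, a pseudocount of 0.1, median-of-ratios and quantile scaling, only the 6 samples, array quality weights, a replicate block, depth as a covariate, an acinar split and each sample left out. Promoter windows are from the RefSeq table, and overlaps from GENCODE vM21. Python 3.11.15, numpy 2.4.6, pandas 2.3.3 and matplotlib 3.10.9 were used.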

Additional observations from a re-analysis of the deposited data

Results flagged for a closer look

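A test of the difference between the 2 vesicle groups found 12 of the genes chosen by smallest p, largest fold or the fixed panel to differ between MSC-EV and HEK-EV (limma, adjusted p over all genes under 0.05). Over all genes 805 of 13435 (5.99%) did. Genes chosen by p or fold were chosen on the same HEK-EV samples, so the 12 are not set against that share. The log2 difference of MSC-EV over HEK-EV was below 0 for Lrg1 (-1.44), Chil3 (-1.24), Soat2 (-0.82), Fos (-0.76), Itgam (-0.70), Klf4 (-0.61), Ptprc (-0.53) and Phospho1 (-0.50). It was above 0 for Gpnmb (1.64), Ltf (1.20), Alb (1.14) and Apoe (0.80). In the HEK-EV samples Gpnmb was at 491, 461 and 351 TPM, and Ltf, a granule gene, at 1.45, 2.31 and 2.84 TPM. Each of these calls depends on single samples, since the number of genes called over the whole comparison fell from 805 to between 0 and 3 when 1 of 4 samples was left out (HEK-EV replicates 1 and 2, MSC-EV replicates 1 and 2). No PBS or HEK-EV group was tested for a sample far from the others, because groups of 3 are too small for that test.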

How the results depend on the processing

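HEK-EV against PBS gave 0 genes under each alternative but these: 2 without the filter on low values (n-R5s41 and Ly6k), 1 without HEK-EV replicate 1 (Gm20056), 2 without HEK-EV replicate 3 (Atf3 and Setd3) and 1 without MSC-EV replicate 1 (Klf4), so the range with a sample left out was 0 to 2. With only the 6 samples compared the smallest adjusted p was 0.145. The 476 genes at an unadjusted p under 0.05 became 1025 without the filter, 2210 with array quality weights and 1609 with depth as a covariate, and 336 to 1155 with a sample left out, the highest without PBS replicate 1. The share of genes with an interval within 2-fold was 93.3% to 99.1% over all alternatives. For MSC-EV against HEK-EV, the 805 genes became 395 without the filter, 423 with FPKM, 485 with median-of-ratios scaling, 2061 with array quality weights, 1481 with depth as a covariate, and 0 to 1339 with a sample left out. The causes of these shifts were not tested. In the fits that leave out a sample, every group keeps at least 2 samples and the spread is shared.

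Same-numbered samples did not pair. The correlation of their deviations from the group means was -0.17, -0.10 and 0.09 for PBS and HEK-EV replicates 1, 2 and 3. With the replicate block, HEK-EV against PBS gave 0 genes called, 403 at an unadjusted p under 0.05 and 97.5% within 2-fold, and MSC-EV against HEK-EV gave 489. The planned acinar split at 0.001% of TPM could not be fitted, since all 9 samples lay above it, and a split at 14 of the 28 genes at 0 was chosen after seeing the data. It gave 0 genes called and 401 at an unadjusted p under 0.05. Without HEK-EV replicate 1 the medians of the Kupffer, endothelial, hepatocyte and dendritic cell lists changed sign, as did the Kupffer list with depth as a covariate and the hepatocyte, heat shock and Ly6C-high monocyte (0.03) lists with the acinar split. Without PBS replicate 3 the immediate early, efferocytosis and Ly6C-high monocyte medians changed sign, and without PBS replicate 1 those of the dendritic cell list and of the SIRP and CD47 genes. The SIRP and CD47 median was also below 0 with array quality weights (-0.06, 5 higher and 8 lower) and depth as a covariate (-0.02, 6 and 7), and the dendritic cell median was above 0 with the weights (0.03). Medians within 0.04 of 0 changed sign in other settings too. The number of 3 samples per group and the unknown depth limit what could be detected.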

Other observations

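Ribosomal protein genes, a group chosen after their values were seen, were slightly lower in the HEK-EV samples. Of 83 tested, 69 were lower and 14 higher, against 5226 and 8209 among all genes, with a median of -0.06. At an unadjusted p under 0.05, 7 of 83 were lower, where 1.26% of all genes were. The median stayed between -0.09 and -0.03 over the alternatives. Together they held 9.02%, 8.82% and 8.77% of TPM in the PBS samples and 8.41%, 8.81% and 8.36% in the HEK-EV samples, so HEK-EV replicate 2 was among the PBS values.

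Some genes known from resident macrophages of the peritoneal cavity varied widely between samples, again a set chosen after the values were seen. Prg4, which encodes lubricin, was at 9.87, 1.24 and 1.53 TPM in the PBS samples and 9.78, 16.1 and 2.59 TPM in the HEK-EV samples. Alox15, a lipoxygenase of such cells, was at 4.43, 0.235 and 0.276 TPM against 4.79, 9.24 and 0.352 TPM. Serpinb2, an inhibitor of plasminogen activators, was at 1.92, 0.377 and 0.447 TPM against 8.51, 5.59 and 1.26 TPM. All 3 were highest among PBS samples in replicate 1 and lowest among HEK-EV samples in replicate 3. Gata6, the lineage factor of these cells, had the same highest and lowest samples over a small range, at 0.529, 0.34 and 0.313 TPM against 0.503, 0.586 and 0.501 TPM, as did Icam2, at 35.5 to 36.6 TPM against 33.1 to 37.1 TPM. Timd4, which Kupffer cells also express, and Selp were highest, not lowest, in HEK-EV replicate 3, at 113 and 2.85 TPM. Cd209b, looked at with them, was highest among PBS samples in replicate 1, at 2.83 TPM. Among HEK-EV samples it was lowest in replicate 1, at 0.835 TPM. In the MSC-EV group Prg4, Alox15 and Serpinb2 were highest in replicate 2, at 3.56, 3.51 and 5.08 TPM. Saa3 had the same order within the HEK-EV group as Serpinb2, but was level over the PBS samples.

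Rgs1, a regulator of chemokine receptor signalling, was at 1336, 692 and 1004 TPM in the PBS samples and 483, 529 and 804 TPM in the HEK-EV samples. H2-DMa, which helps load peptides on MHC class II, split the samples within every group, at 44.6, 129.8 and 42.2 TPM with PBS, 120.5, 129 and 32.9 TPM with HEK-EV and 67.1, 48.0 and 124 TPM with MSC-EV, and it shares exonic bases with Brd2.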
